A study of Mus musculus with 42 samples.

Results

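This report concerns 45 genes that run the cell division cycle and mitosis, followed through all 14 groups of the study. They were chosen by name, with earlier results of these data known. A gene was analysed if its symbol was present in the platform annotation of the arrays. Its brightest probe set (the highest mean over all arrays) stood for it. Of the 45, 44 were found among the 18193 genes that the annotation names, and all 44 passed the filter on dim genes that left 15478 genes for testing. Ccnb1 was not analysed here. All embryos were B6D2F1 mice, a hybrid of the inbred strains C57BL/6 and DBA/2, cultured in Human Tubal Fluid with serum supplement. One-cell embryos were left uninjected or injected with a morpholino (a synthetic antisense oligomer used to block the splicing or translation of an RNA) directed at Oct4 (gene Pou5f1), Sall4 or Nanog, or with a control morpholino that has no match in the mouse genome or transcriptome. They were collected 20 h or 44 h later, with 3 arrays for every group. The 20 h embryos of the Oct4 experiment, and likewise of the Sall4 experiment, were uninjected or morpholino-injected, with no control injection. The Nanog experiment held uninjected, control-injected and Nanog-injected embryos at both times. At 44 h, Oct4 and Sall4 morpholino embryos shared 1 set of uninjected and 1 set of control-injected embryos. The number of embryos per array and the way each morpholino blocks its RNA are not given in the sources used here, and a knockdown of this kind need not lower the level of the RNA it targets.

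Progress through the cycle is driven by cyclins, which bind and activate cyclin-dependent kinases (Cdks). D-type and E-type cyclins act before and at the start of DNA replication, and A-type and B-type cyclins carry the cell through replication and into mitosis. In mitosis, condensin compacts the chromosomes, kinetochores attach them to spindle microtubules, and the spindle checkpoint holds back the anaphase-promoting complex until every kinetochore is attached. Early mouse embryos divide without growing, and the RNAs that the egg supplied are degraded while the embryo's own genes switch on.

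The labelled cell type was checked first. Of the 10 markers of oocytes and early embryos on the arrays, 7 to 10 lay above the array's own median on all 3 arrays of a group, against 1 to 4 of 11 cumulus and granulosa markers and 0 to 2 of 9 markers of blood, stroma and fibroblasts. The oocyte and embryo list holds Pou5f1 and Sall4, which are targets of the morpholinos, and genes such as Cdx2, Tead4, Krt8 and Krt18. Summed intensities of the marker lists at 44 h stand beside the results they move with. Intensities are given as deposited. The 18 arrays of the Nanog experiment had medians of 193.1 to 227.3, while medians of 26.1 to 33.3 were found for the remaining 24, so levels were compared within an experiment. Pou5f1 RNA was lower with the Oct4 morpholino at 44 h (log2 difference -0.82, adjusted p = 0.00323) and not at 20 h (0.22, adjusted p = 0.857). Sall4 RNA with its own morpholino differed by 0.00 at 20 h and 0.21 at 44 h (adjusted p = 1 and 0.702), and Nanog RNA with its own by -0.29 and -0.61 (adjusted p = 1 and 0.654). One array stood apart among the cell cycle genes: the third uninjected array of the Sall4 experiment at 20 h read 6844 for Cdc25c, where its replicates read 763 and 1032.

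The cell cycle genes were bright throughout. In every group, 42 to 44 of the 44 lay above their array's own median on all 3 arrays. That median covers all probe sets, while each gene was read from its brightest one, which favours a high count. The share of all genes above it was not counted. Replicates of the cell cycle genes lay close together: the median SD between replicate arrays was 0.316 on the log2 scale, from 0.05 for Birc5 to 0.835 for Bub1b, against a median of 0.5 over all genes tested, whose median level was lower (7.7 against 10.97 on the log2 scale).

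Many genes of G2 and mitosis carry a cell cycle homology region, or CHR (TTTGAA), close to the start of transcription, often with CCAAT boxes upstream, through which the DREAM and B-Myb complexes act. RefSeq promoters (build GRCm38.p6, 250 bases before to 50 after each start) were found for 35 of the 45 genes, 38 promoters in all. The CHR letters, on either strand, were present in 22 of the 38 promoters (57.9%), against 5878 of all 32851 promoters (17.9%), and 21 of their 28 matches lay within 50 bases of the start. By gene, 20 of the 35 held them. Promoters of the same gene can overlap, so a site of Prc1 and a site of Bub3 were each counted more than once among the matches. CCAAT was present on either strand in 28 of the 38 promoters (73.7%, against 37.4%), and no CHR match overlapped a CCAAT match. The letters TTTCCCGC, TTTCGCGC, TTTGCCGC or TTTGGCGC, forms of the E2F site, were present in 3 (7.89%, against 2.26%). The stretches below run from 100 bases before to 24 bases after the start, 5′ to 3′ on the gene's strand, with CHR and CCAAT matches in capitals (TTCAAA and ATTGG on the other strand). They belong to genes that the results turn on: Cdk1, Ccnb2, Cenpf, Cenpa and Bub3 hold matches, while Plk4 and Nuf2 hold none of these letters in the stretch shown. A match describes the sequence and is no evidence of binding.
Cdk1, chr10:69352889-69353012 (minus strand): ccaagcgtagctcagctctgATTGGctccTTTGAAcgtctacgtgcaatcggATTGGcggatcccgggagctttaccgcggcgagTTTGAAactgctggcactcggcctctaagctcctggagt
Ccnb2, chr9:70421531-70421654 (minus strand): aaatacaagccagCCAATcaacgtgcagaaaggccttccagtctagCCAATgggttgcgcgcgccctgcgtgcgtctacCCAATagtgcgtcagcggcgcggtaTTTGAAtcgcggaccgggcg
Cenpf, chr1:189688063-189688186 (minus strand): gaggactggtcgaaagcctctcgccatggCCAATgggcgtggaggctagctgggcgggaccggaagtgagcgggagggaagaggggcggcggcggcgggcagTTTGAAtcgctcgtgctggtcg
Cenpa, chr5:30666786-30666909 (plus strand): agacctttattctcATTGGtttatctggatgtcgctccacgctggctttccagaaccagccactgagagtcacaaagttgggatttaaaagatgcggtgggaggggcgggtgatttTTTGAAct
Bub3, chr7:131560270-131560393 (plus strand): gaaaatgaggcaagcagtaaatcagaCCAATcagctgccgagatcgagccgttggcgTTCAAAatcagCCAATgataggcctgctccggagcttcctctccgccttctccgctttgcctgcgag
Plk4, chr3:40799851-40799974 (plus strand): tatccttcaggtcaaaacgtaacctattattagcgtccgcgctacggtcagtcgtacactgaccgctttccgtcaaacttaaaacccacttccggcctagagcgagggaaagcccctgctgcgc
Nuf2, chr1:169531441-169531564 (minus strand): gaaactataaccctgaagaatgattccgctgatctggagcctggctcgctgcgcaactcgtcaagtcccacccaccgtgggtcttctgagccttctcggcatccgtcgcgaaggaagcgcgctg

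How the RNAs of the cycle change as uninjected embryos go from 20 h to 44 h was measured in the Nanog experiment and, on other arrays, by setting the 44 h uninjected embryos of the Oct4 and Sall4 experiment against the uninjected embryos of both 20 h experiments. In the latter comparison time and experiment cannot be told apart. In the Nanog experiment 10 of the 44 genes passed the test (limma, adjusted p under 0.05), 3 higher and 7 lower at 44 h. That is 22.7% of the genes, against 25.6% of all 15478 tested (9.28% higher and 16.3% lower). In the other experiments 26 passed, 11 higher and 15 lower, which is 59.1% against 45.5% (20.4% higher and 25% lower). All 10 genes called in the Nanog experiment were called in the same direction in the other experiments, 38.5% of the 26 called there. Over all genes, 3215 were called in the same direction in both, 81.2% of the 3958 and 45.7% of the 7038. The measured change with time differed between the experiments for 8 of the 44 genes (18.2%, against 6.74% of all genes, 3.74% higher and 3% lower in the Nanog experiment): it was higher there for Cks1b, Cenpf, Incenp, Plk4 and Pttg1 and lower for Cdkn3, Plk1 and Cenpe. The experiments differ in intensity scale, so scale and experiment cannot be told apart in this difference. An array averages whole embryos, so fewer cells in a phase of the cycle and less RNA per cell cannot be told apart.

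**Figure D1:**
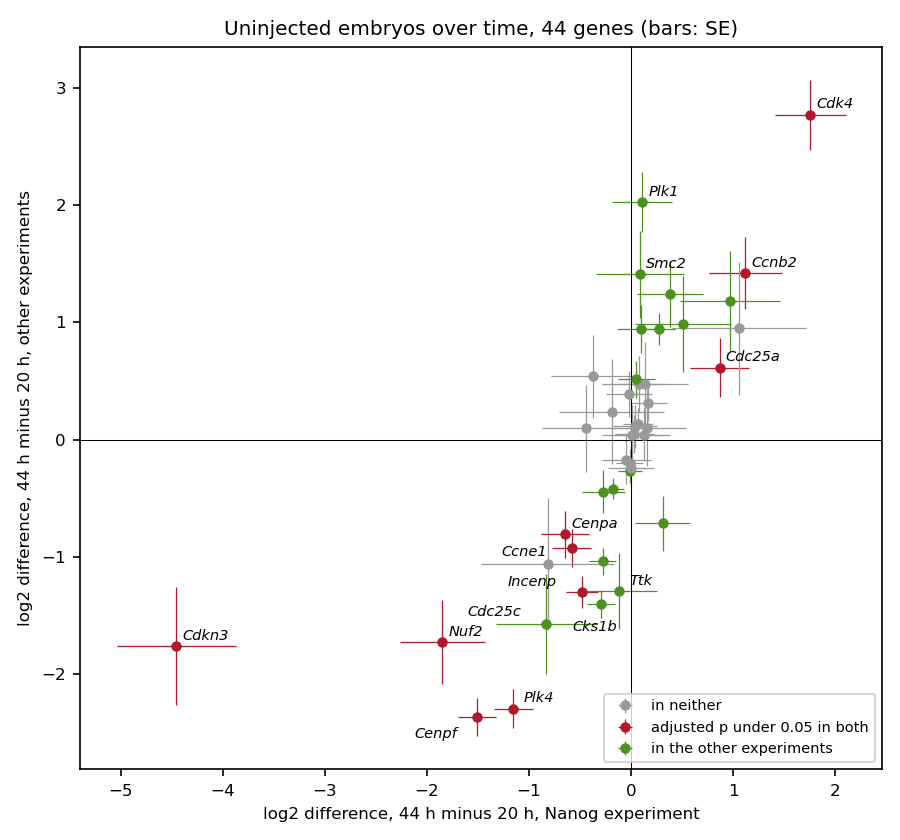
Each point is 1 of the 44 genes. The x axis is the log2 difference between 44 h and 20 h in uninjected embryos of the Nanog experiment, the y axis the same in the other experiments, bars are standard errors, and colours show where a gene passed the test. Cdk4 lies at the top right (1.76 and 2.77) and Cdkn3, Cenpf, Plk4 and Nuf2 at the bottom left, while Plk1 is high on the y axis only (0.11 and 2.03).

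Cyclins and their kinases did not all move the same way. Cdk4, the partner of the D-type cyclins, rose. It read 890.2, 687 and 329.9 at 20 h and 2161, 2303 and 1675 at 44 h in the Nanog experiment (log2 difference 1.76, SE 0.34, adjusted p = 0.000226). Elsewhere Cdk4 read 88.8, 90.0 and 89.3 in the Oct4 and 73.3, 72.5 and 259.9 in the Sall4 experiment at 20 h, and 729, 818 and 806 at 44 h (log2 difference 2.77, SE 0.30, adjusted p = 3.85e-09). The groups did not overlap in either comparison. Ccnb2, a B-type cyclin that activates Cdk1, also rose, from 1416 ± 386 (SD, n = 3) to 3151 ± 1060.0 (SD, n = 3) in the Nanog experiment (log2 difference 1.12, SE 0.35, adjusted p = 0.018), and by 1.42 in the others (adjusted p = 0.000285). Ccne1, an E-type cyclin that works with Cdk2, fell, from 6607 ± 445 (SD, n = 3) to 4409 ± 260.0 (SD, n = 3) (log2 difference -0.58, SE 0.19, adjusted p = 0.0218), and with a log2 difference of -0.92 in the others (adjusted p = 2.23e-05). Further changes were called in the other experiments: Ccnd3, a D-type cyclin, and Cdk2 rose (1.18 and 0.99), and the Cdk-binding subunits Cks1b and Cks2 fell (-1.41 and -0.27). Cks1b read 6068 to 7361 on the 6 arrays at 20 h and 2801, 2509 and 2146 at 44 h, against 10638 to 10718 and 8500.4, 8969.8 and 8689.7 in the Nanog experiment. Cdk1 itself was not called with time (-0.05 and -0.17; adjusted p = 0.914 and 0.543).

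Among the enzymes that set Cdk phosphorylation, Cdc25a, a phosphatase that activates Cdks, rose in both comparisons (0.87 and 0.61; adjusted p = 0.025 and 0.0447). Cdkn3, a phosphatase that removes the activating phosphate of Cdks, fell. It read 2121, 2368 and 1841 at 20 h and 46.8, 26.9 and 315 at 44 h in the Nanog experiment (log2 difference -4.46, SE 0.58, adjusted p = 7.73e-07), the largest change of the 44 genes in either time comparison. Elsewhere it fell from a range of 129 to 352 to 38.6, 139 and 42.4 (log2 difference -1.76, SE 0.51, adjusted p = 0.00462). Cdc25b and Cdc25c, relatives of Cdc25a, fell in the other experiments (-0.71 and -1.57), and the Nanog experiment gave 0.31 and -0.83 without a call. Wee1, the kinase that opposes Cdc25, was not called (-0.44 and 0.10).

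Of the Aurora and Polo kinases and the chromosomal passenger complex, Plk4, which starts centriole duplication, and Incenp, the scaffold of the passenger complex, fell in both comparisons. Plk4 read 7008, 7881 and 7798 at 20 h and 3261, 3474 and 3422 at 44 h in the Nanog experiment (log2 difference -1.15, SE 0.19, adjusted p = 2.92e-05). Elsewhere it read 1808 to 2324 at 20 h and 379, 347 and 478 at 44 h (log2 difference -2.30, SE 0.17, adjusted p = 1.09e-12), with no overlap of groups. Incenp differed by -0.48 and -1.30 (adjusted p = 0.0226 and 2.22e-09). Plk1, a kinase of mitotic entry and spindle assembly, rose in the other experiments from 79.2 to 258 at 20 h to 576, 475 and 724 at 44 h (log2 difference 2.03, SE 0.25, adjusted p = 7.21e-08). Embryos of the Nanog experiment read 2614, 2817 and 2530.1 and then 3016, 2754 and 2816, a difference of 0.11. Birc5 (survivin), another passenger protein, fell by less (-0.42, adjusted p = 0.000338) in the other experiments.

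Of the 7 genes that fell in both comparisons, 3 belong to the kinetochore. Cenpf, a large protein of the outer kinetochore made in G2 and mitosis, read 8022, 7915 and 7956 at 20 h and 3735, 3114 and 1862 at 44 h in the Nanog experiment (log2 difference -1.51, SE 0.19, adjusted p = 3.16e-07). In the other experiments it read 2671, 2280.0 and 2438 and 1909, 1925 and 1350.3 at 20 h, and 375, 409 and 366 at 44 h (log2 difference -2.37, SE 0.16, adjusted p = 2.8e-13). Nuf2, a subunit of the Ndc80 complex that grips microtubules, fell, with log2 differences of -1.85 and -1.73 (adjusted p = 0.001 and 0.000172), and Cenpa, the histone H3 variant that marks centromeres, fell too, with -0.65 and -0.81 (adjusted p = 0.0395 and 0.00134). Ndc80, the partner of Nuf2, went the other way in the other experiments (1.24, adjusted p = 0.00044), as did Cenpe, a kinetochore motor (0.94, adjusted p = 6.85e-07). Neither was called in the Nanog experiment (0.38 and 0.28).

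The other roles gave calls in the other experiments. In the Nanog experiment they gave none with the brightest probe sets, and with probe sets averaged Bub1 (1.57, adjusted p = 0.0195), Pttg1 (-0.88, 0.00136) and Kif11 (1.06, 0.0112) were called. For Bub1 the probe set used gave 0.15 there, and a dim one (mean 5.23 on the log2 scale) gave 2.98. Of 5 spindle checkpoint genes, Ttk (Mps1, a kinase) and Mad2l1 (Mad2) fell in the other experiments (-1.29 and -0.45). Of 3 anaphase genes, Pttg1 (securin, the inhibitor of separase) fell from 4604 to 5794 at 20 h to 2757, 2468 and 2304 (-1.04, adjusted p = 6.43e-09). Of 5 genes of the spindle and cytokinesis, the kinesins Kif20a and Kif23 rose (0.94 and 0.52). Smc2, a core subunit of condensin, rose by 1.41 (adjusted p = 0.00215).

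Several of these calls were lost when single arrays were left out. In the Nanog experiment the count was 6 without the first and 5 without the second uninjected 44 h array. Ccnb2 was lost in a fit of the compared arrays alone (0.068) and without any of 4 of the 6 arrays left out in turn (0.0517 to 0.115; all but uninjected 20 h replicate 2 and uninjected 44 h replicate 3). Ccne1 was lost in a fit of the compared arrays alone (0.0566) and without uninjected 20 h replicate 2 (0.0729) or uninjected 44 h replicate 1 (0.0643) or uninjected 44 h replicate 2 (0.066). Incenp was lost in a fit of the compared arrays alone (0.0952), with the mean of its probe sets (0.221) and without uninjected 20 h replicate 2 (0.0529) or uninjected 20 h replicate 3 (0.0588) or uninjected 44 h replicate 2 (0.1). Cdc25a was lost without any of 4 of the 6 arrays left out in turn (0.0524 to 0.103; all but uninjected 20 h replicate 2 and uninjected 20 h replicate 3). Cenpa was lost with a pseudocount of 1 (0.0772), with quantile normalization (0.14), in a fit of the compared arrays alone (0.0613), with the mean of its probe sets (0.71) and without any of 5 of the 6 arrays left out in turn (0.0643 to 0.161; all but uninjected 44 h replicate 3), and its log2 difference turned to 0.20 with the mean of its probe sets. Values in brackets are adjusted p. With probe sets averaged 14 genes were called in the Nanog experiment, 6 higher and 8 lower, and Ccnd2 (0.56), Cks1b (-0.43) and Cdc25c (-1.01) were among the 6 gained. In the other experiments, averaged probe sets gained Cdc20 (0.73), Kif11 (1.63) and Top2a (-0.81), and quantile normalization Ccna2 (-0.29) and Kif11 (0.58). There Cdk2 was lost with a pseudocount of 64 (0.0676), with no filter (0.0541), with the mean of its probe sets (0.0988) and without any of 8 of the 9 arrays left out in turn (0.0561 to 0.219; all but Sall4-experiment uninjected 20 h replicate 3). Cdc25a was lost in a fit of the compared arrays alone (0.123) and without any of 7 of the 9 arrays left out in turn (0.0631 to 0.18; all but Oct4-experiment uninjected 20 h replicate 1 and Sall4-experiment uninjected 20 h replicate 3), and Mad2l1 with a pseudocount of 1 (0.0506), with no filter (0.0506), with quantile normalization (0.157), with median centring (0.0635), in a fit of the compared arrays alone (0.123) and without any of 7 of the 9 arrays left out in turn (0.0532 to 0.341; all but Sall4-experiment uninjected 20 h replicate 2 and uninjected 44 h replicate 3). Cks2 was lost with median centring (0.0796), in a fit of the compared arrays alone (0.181), with the mean of its probe sets (0.196), and without the third Oct4-experiment array, the third Sall4-experiment array or 44 h arrays 2 and 3 in turn (0.0552 to 0.106). Ccnd3 was lost with the mean of its probe sets (0.41) and without Oct4-experiment uninjected 20 h replicate 3 (0.062) or uninjected 44 h replicate 1 (0.103) or uninjected 44 h replicate 3 (0.0611). Cdc25b was lost in a fit of the compared arrays alone (0.0734) and without uninjected 44 h replicate 3 (0.223), Cdc25c in a fit of the compared arrays alone (0.104) and without uninjected 44 h replicate 2 (0.0774), Kif23 without uninjected 44 h replicate 1 (0.0815), Incenp with the mean of its probe sets (0.0915) and Smc2 in a fit of the compared arrays alone (0.101). Without the third Sall4-experiment array, which stood apart, 26 genes were again called, 24 of them the same, and Ccne2 and Cdc20 (-1.36 and 0.38) took the place of the others. Cdk4, Cdkn3, Cenpf, Plk4 and Nuf2 were called in both comparisons under every alternative run.

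**Figure D2:**
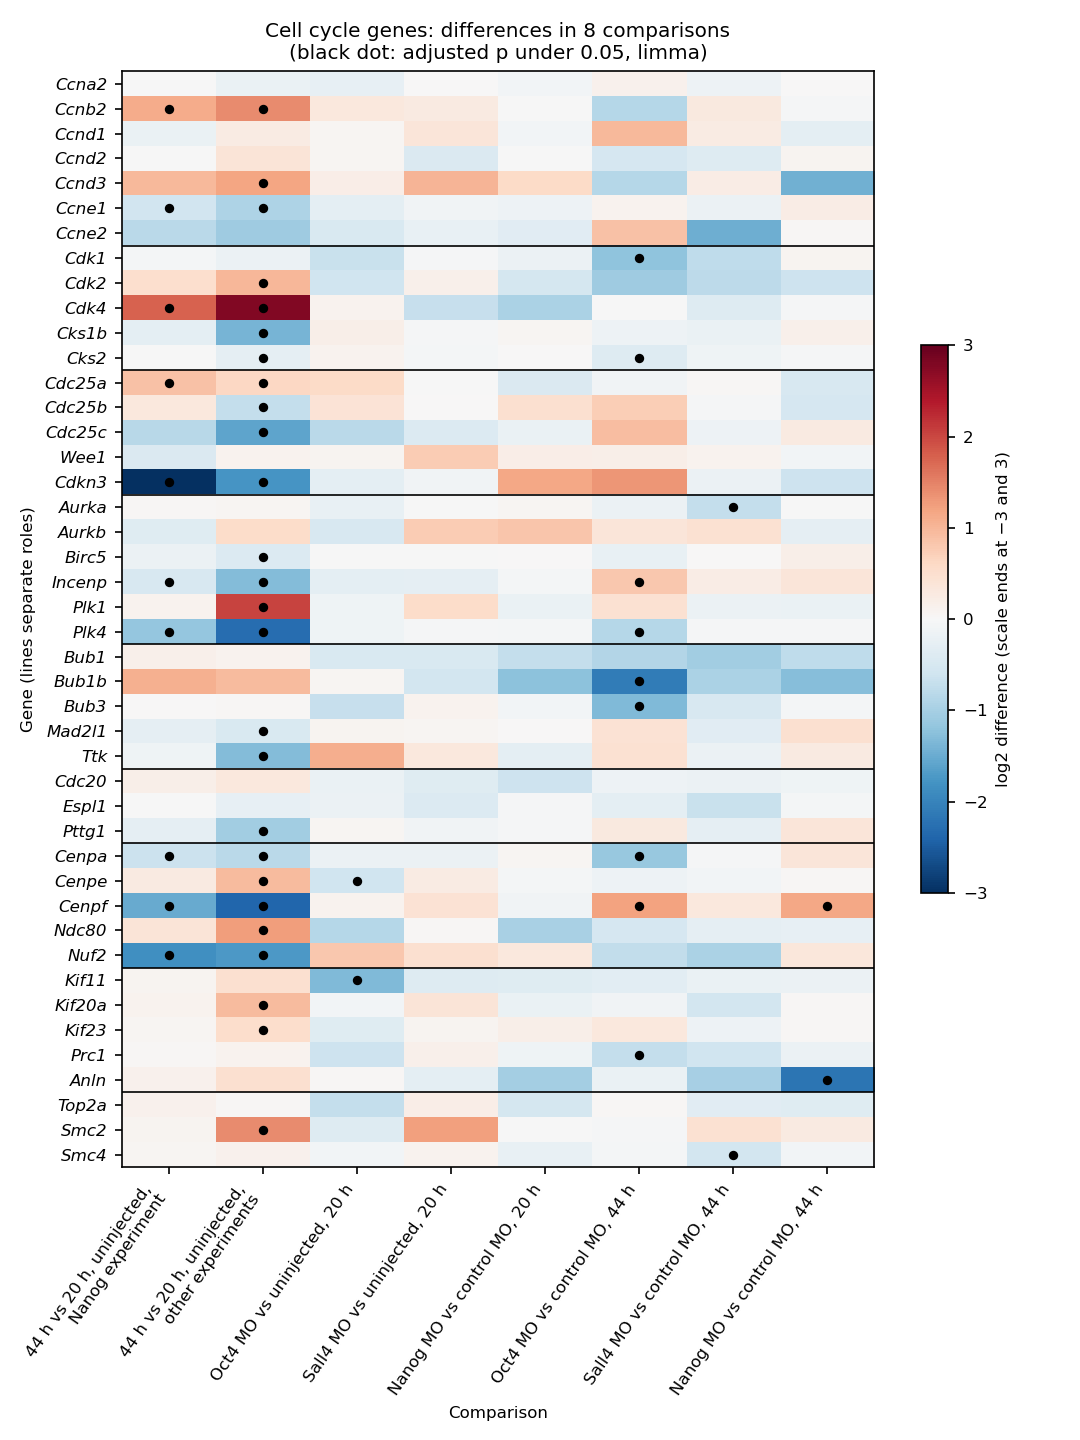
Rows are the 44 genes in groups of role, columns are 8 comparisons, colour is the log2 difference (scale ending at -3 and 3) and a black dot marks an adjusted p under 0.05. The 2 time columns hold 10 and 26 dots, the Oct4 morpholino column at 44 h holds 9, and each other morpholino column holds at most 2.

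With the Oct4 morpholino at 44 h, 9 of the 44 genes differed from control-injected embryos, 2 higher and 7 lower. That is 20.5% of the genes, against 11.6% of all genes tested (5.38% higher and 6.18% lower), and their median log2 difference was -0.13 against 0.02 over all genes. The genes that fell included Cdk1, the central mitotic kinase, the checkpoint proteins Bub3 and Bub1b, the centromere histone Cenpa and the centriole kinase Plk4. Cenpf and Incenp rose. The arrays of the groups did not overlap for any of the 9. The test on the same arrays had picked these genes, so this adds no support. With all probe sets of a gene averaged the count was 7, with the balance turned to 4 higher and 3 lower and 4 genes shared, and against uninjected embryos it was 11, 4 higher and 7 lower with 7 shared. Summed marker intensities moved as well: oocyte and embryo markers were at 18032 to 20896 in the control and 14788 to 16453 with the Oct4 morpholino, cumulus and granulosa markers at 804 to 1164 and 1188 to 1688, and markers of blood, stroma and fibroblasts at 228 to 463 and 228 to 695. Above the array median were 10 and 8 of 10 of the first list, 1 and 1 of 11 of the second and 1 and 1 of 9 of the third. The first list holds Pou5f1, which was itself lower with this morpholino. The part of other cells in these results was not tested.

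Cdk1 read 2696, 2618 and 1936 in control-injected and 2486, 2634 and 2559 in uninjected embryos, and 949, 899.8 and 1239 with the Oct4 morpholino (log2 difference -1.22, SE 0.24, adjusted p = 0.000804). All 3 morpholino arrays lay below all 6 others. Cks2, a small subunit that binds Cdk1, read 4518 ± 128 (SD, n = 3) in the control and 3474 ± 318 (SD, n = 3) with the morpholino (log2 difference -0.38, SE 0.12, adjusted p = 0.0304). Cdk2, Cdk4 and Cks1b gave -1.06, -0.02 and -0.15 without a call. None of the 7 cyclins was called with all arrays and the brightest probe sets: Ccnb2 gave -0.85, Ccnd1 0.98, and Ccna2, the A-type cyclin, 0.13. Calls appeared for Ccnb2 without the second Oct4 morpholino array (-1.41, adjusted p = 0.00564) and for Ccnd3 against uninjected embryos (-1.49, adjusted p = 0.0365). Ccnd2 was called in opposite directions, higher with its probe sets averaged (1.16, adjusted p = 0.000293) and lower without the first Oct4 morpholino array (-0.80, adjusted p = 0.0197). Of its probe sets only the brightest, the one used, was lower with the Oct4 morpholino, and all the others were higher.

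Bub3, which brings Bub1 and BubR1 to kinetochores, read 776, 939 and 865 in control-injected embryos and 276, 427 and 315 with the Oct4 morpholino (log2 difference -1.32, SE 0.30, adjusted p = 0.00332). Bub1b (BubR1), which holds back the anaphase-promoting complex, read 222, 303 and 507 and 9.56, 187 and 83 (log2 difference -2.09, SE 0.66, adjusted p = 0.0339), the widest spread of the 9. Bub1 gave -0.88, and Mad2l1 and Ttk 0.45 and 0.46, none called. The 3 anaphase genes Cdc20, Espl1 (separase) and Pttg1 gave -0.15, -0.30 and 0.29 without a call.

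Kinetochore genes moved in opposite directions. Cenpf read 514, 537 and 454 in the control and 1108, 1187 and 1233 with the Oct4 morpholino (log2 difference 1.20, SE 0.19, adjusted p = 4.16e-05). The morpholino arrays stood above every other 44 h array of the experiment and below the 20 h uninjected arrays of the Oct4 experiment (2280.0 to 2671). Cenpa read 323, 311 and 263 in the control and 162, 58.7 and 207 with the morpholino (log2 difference -1.13, SE 0.23, adjusted p = 0.00134). Cenpe, Ndc80 and Nuf2 gave -0.15, -0.51 and -0.74, none called. Incenp read 2637, 2286 and 3000.3 and 4566, 4097 and 5263 (log2 difference 0.81, SE 0.16, adjusted p = 0.00067), while its partners Aurkb and Birc5 gave 0.37 and -0.23. Plk4 read 507, 465 and 529 and 375, 255 and 199.6 (log2 difference -0.86, SE 0.19, adjusted p = 0.0028). Of the cytokinesis genes, Prc1, which bundles the microtubules of the midzone, fell from 1658 ± 90.2 (SD, n = 3) to 1032 ± 348 (SD, n = 3) (log2 difference -0.73, SE 0.21, adjusted p = 0.0226).

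**Figure D3:**
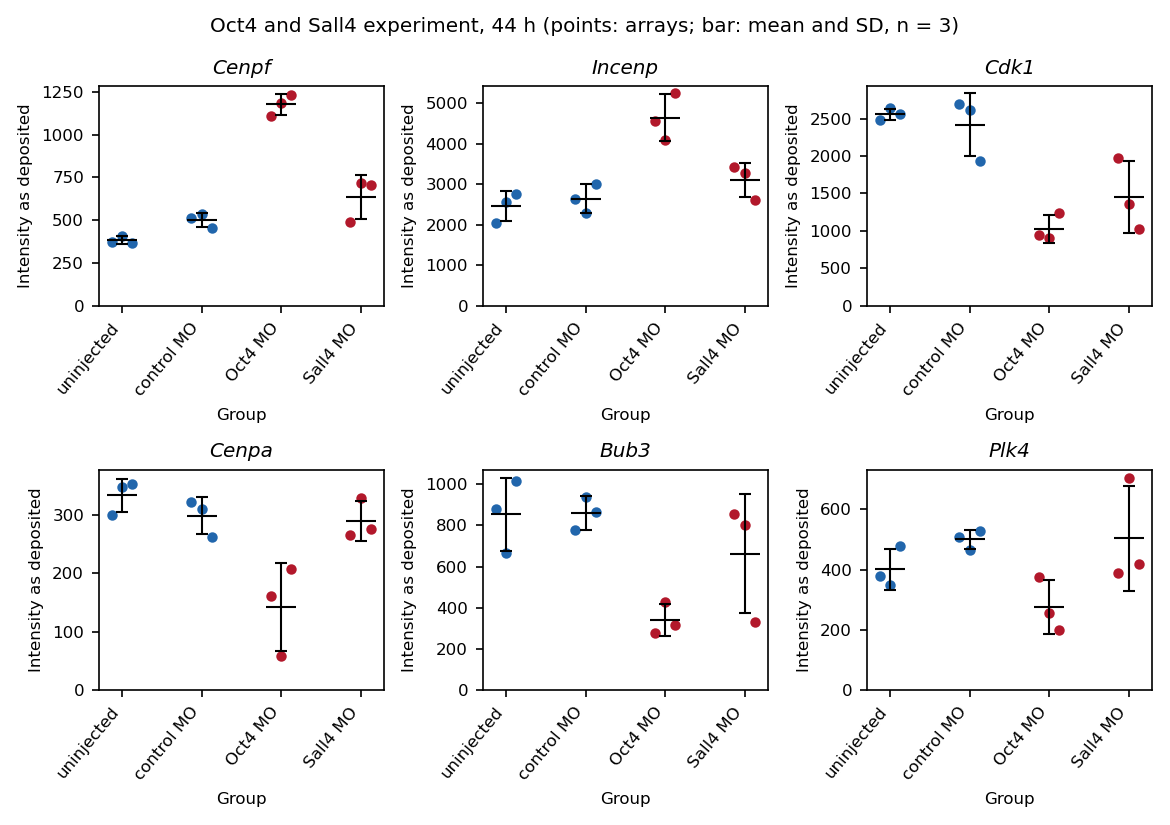
Deposited intensity (y axis, from 0) of 6 genes on each array of the 4 groups of the Oct4 and Sall4 experiment at 44 h, with mean and SD (n = 3). Cenpf and Incenp are highest and Cdk1, Cenpa, Bub3 and Plk4 lowest on average with the Oct4 morpholino.

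Cdk1 kept its call under every alternative run. In a fit of the 6 compared arrays alone, 3 genes were called: Cdk1, Bub3 and Cenpf. With the mean of all probe sets of a gene, Cenpf (adjusted p = 0.0527), Bub3 (0.0936), Cenpa (0.109), Bub1b (0.142) and Cks2 (0.0644) were not called, while Pttg1 (1.44, adjusted p = 1.59e-05), Ccnd2 (1.16) and Ttk (1.19, 0.0115) were. Against uninjected embryos Plk4 (0.0548) and Bub1b (0.0517) were not called, while Cdc25b (1.38, 0.000564), Cenpe (-0.61, 0.00613), Pttg1 (0.42, 0.0286) and Ccnd3 were. Cdc25b was also called with quantile normalization (0.80, 0.0358) and without the third control array (0.97, 0.0327). Leaving out single arrays ended the calls of Bub1b, lost without any of 4 of the 6 (0.0543 to 0.273; all but the first control and the second morpholino array), Prc1, lost without any of 4 (0.0537 to 0.158; all but the first control and the third morpholino array), and Cks2, lost without any of 5 (0.0598 to 0.127; all but the first morpholino array); quantile normalization also ended that of Cks2 (0.148) and a pseudocount of 64 that of Bub1b (0.0716).

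With the Sall4 morpholino at 44 h, 2 of the 44 genes differed from control-injected embryos, both lower. This is 4.55%, against 3.97% of all genes tested (2.13% lower), with medians of -0.18 and -0.02. Aurka, the Aurora kinase of centrosomes and spindle poles, read 3254, 3468 and 3187 in the control and 2495, 1183 and 2717 with the morpholino (log2 difference -0.72, SE 0.19, adjusted p = 0.0262). Smc4, the condensin subunit that pairs with Smc2, read 4109, 3779.8 and 4195 and 2947, 2245 and 3046 (log2 difference -0.56, SE 0.15, adjusted p = 0.027). The groups did not overlap for either gene, and the second morpholino array was the lowest for both. Cdk1 read 1979, 1357 and 1027 and was not called (-0.76, adjusted p = 0.0678), and Bub1 and Bub1b gave -1.04 and -0.95 without a call. Both calls were lost when single arrays were left out. No gene was called without any 1 of the 3 control arrays or the second morpholino array. Without 1 control array the log2 differences changed little (Aurka -0.68 to -0.74, Smc4 -0.53 to -0.61). Without the second morpholino array they shrank to -0.34 for Aurka and -0.42 for Smc4. There were 4 calls without the first morpholino array (Aurka, Smc4, Cdk1 and Espl1) and 4 without the third (Aurka, Smc4, Bub1 and Mad2l1). Against uninjected embryos 6 genes were called, with Cdk1 (-0.86), Mad2l1 (-0.73), Cenpe (-0.54) and Cenpf (0.69) beside Aurka and Smc4, and none was called after averaging a gene's probe sets, after quantile normalization or in a fit of the compared arrays alone. Cumulus and granulosa markers summed to 804 to 1164 in the control and 1476 to 1966 with the Sall4 morpholino, oocyte and embryo markers to 18032 to 20896 and 15282 to 18251, and markers of blood, stroma and fibroblasts to 228 to 463 and 235 to 355. With that morpholino 7 of 10 oocyte and embryo, 2 of 11 cumulus and granulosa and 1 of 9 other markers lay above the array median, and their part in the result was not tested.

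The Oct4 and Sall4 morpholinos were also compared with each other, on arrays of the same experiment and time. Of the 44 genes, 9 differed (20.5%, against 7.07% of all genes tested, 3.71% higher and 3.36% lower), 6 higher and 3 lower with the Oct4 morpholino. Cenpf (log2 difference 0.89, SE 0.19, adjusted p = 0.00244), Incenp (0.58, adjusted p = 0.0193), Pttg1 (0.55, 0.00739), Mad2l1 (0.80, 0.0168), Smc4 (0.51, 0.0327) and Ccne2, an E-type cyclin (2.35, 0.0224), were higher. Cenpa (log2 difference -1.09, SE 0.23, adjusted p = 0.00292), Plk4 (-0.82, 0.00627) and Ccnb2 (-1.15, 0.0427) were lower. Pttg1 read 3433, 3443 and 3194 with the Oct4 and 2289.8, 2026 and 2554 with the Sall4 morpholino, on either side of the control (2567, 2712 and 2977). Ccne2 was dim: it read 24, 101 and 438 with the Oct4 and 10.1, 11.1 and 6.85 with the Sall4 morpholino. The arrays of Ccnb2 and Mad2l1 overlapped between the groups, and those of the other 7 did not. The latter adds no support, since the test on the same arrays had picked these genes. Cdk1 was not called between them (-0.46, adjusted p = 0.305).

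In a fit of these 6 arrays alone none of the 9 was called. The count was 5 without the third Oct4 array and 3 without the second Sall4 array (Cenpa, Cenpf and Incenp). Cenpf and Cenpa were called without each array in turn, though Cenpa not with the mean of its probe sets (0.416). Other genes were gained: Ccnd2 (1.10) and Ttk (1.36) with probe sets averaged, Aurka without the first (0.70) or the third Sall4 array (0.76), and Bub3 (-1.27) and Kif23 (0.67) without the third. Plk4 was lost without the third Oct4 (0.0638) or the second Sall4 array (0.0824), Incenp without the third Oct4 (0.0995) or the third Sall4 array (0.111) and with the mean of its probe sets (0.165), Pttg1 without the second Sall4 array (0.0524), Mad2l1 without the second Oct4 (0.107), first Sall4 (0.104) or second Sall4 array (0.135), and Smc4 without the first Oct4 (0.126), second Oct4 (0.119) or second Sall4 array (0.198), with median centring (0.0535) and with the mean of its probe sets (0.0921). Ccne2 was lost with a pseudocount of 64 (0.119) and without the third Oct4 or any Sall4 array (0.0524 to 0.215), and Ccnb2 without any array but the second Oct4 array (0.0706 to 0.256).

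With the Nanog morpholino at 44 h, 2 of the 44 genes differed from control-injected embryos of the same experiment, Cenpf higher and Anln lower. This is 4.55%, against 5.01% of all genes tested (3.44% higher and 1.56% lower), and the medians were -0.04 and 0.05. Cenpf read 3735, 3114 and 1862 in uninjected and 3137, 2645 and 3052 in control-injected embryos, and 7136, 6529 and 6131 with the Nanog morpholino (log2 difference 1.16, SE 0.19, adjusted p = 0.000249). All 3 morpholino arrays lay above all 6 others of that time. At 20 h, Cenpf had read 7667, 7539 and 8946 in control-injected and 7277, 6659 and 8403 in morpholino embryos (-0.11, adjusted p = 1) and the 44 h and 20 h morpholino arrays overlapped. The effect of the morpholino differed between 44 h and 20 h (log2 difference 1.28, SE 0.26, adjusted p = 0.0139), the single gene of the 44 for which it did (2.27%, against 0.827% of all genes and 0.614% higher). That call was lost in a fit of the compared arrays alone (0.103) and with the mean of the probe sets (0.108). Another probe set of Cenpf read 1100.2, 1804 and 1335 in the control and 4637, 4977 and 3296 with the morpholino at 44 h, and a dimmer one gave a log2 difference of -0.09.

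Anln encodes anillin, which links the contractile ring to the membrane in cytokinesis. It read 2219.8, 2947 and 2068 in control-injected embryos at 44 h and 176, 596 and 1231 with the Nanog morpholino (log2 difference -2.19, SE 0.42, adjusted p = 0.00174). At 20 h it read 1775, 2280.3 and 1345 and 439, 1293 and 1092 (-1.03, adjusted p = 0.44). At 44 h, where the test on the same arrays had picked this gene, the groups did not overlap. The other probe set of Anln went the other way at 44 h (0.65), and the mean of the probe sets gave no call (0.323). Bub1b (-1.28) and Ccnd3 (-1.44) were not called. In a fit of the 6 arrays alone neither Cenpf (0.0987) nor Anln (0.282) was called. With the mean of all probe sets 5 genes were: Cenpf, Ccna2 (-0.59), Incenp (0.67), Bub1 (-1.82) and Pttg1 (0.66). For Bub1 the probe set used gave -0.76, and a dim one (mean 5.23 on the log2 scale) gave -2.88. With a pseudocount of 64, Ccnd3 (-1.38) and Pttg1 (0.36) were called beside Cenpf and Anln. Oocyte and embryo markers summed to 39578 to 41521 in the control and 37480 to 39530 with the Nanog morpholino (9 of 10 above the array median in both), cumulus and granulosa markers to 2102 to 3667 and 3111 to 4011 (2 and 3 of 11) and the blood, stroma and fibroblast markers to 2914 to 4324 and 1681 to 4584 (2 and 1 of 9); their part in the result was not tested.

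**Figure D4:**
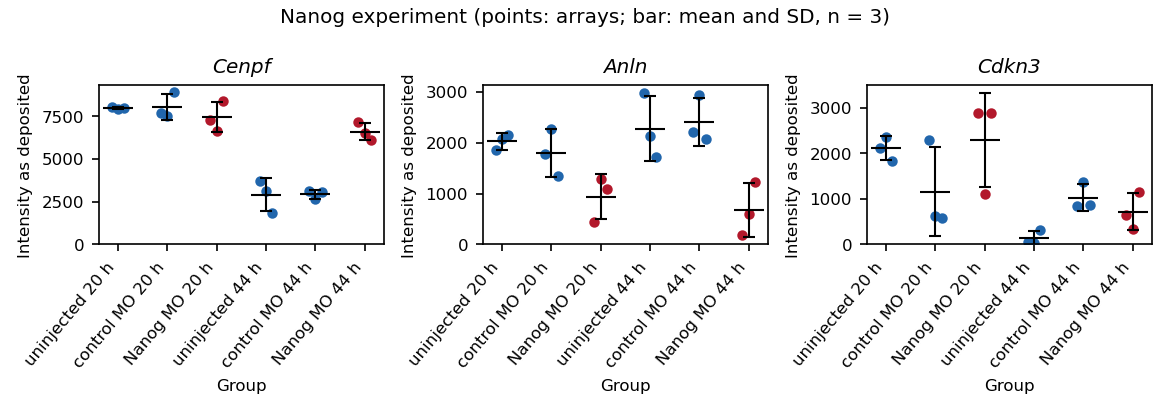
Deposited intensity (y axis, from 0) of Cenpf, Anln and Cdkn3 on each array of the 6 groups of the Nanog experiment, with mean and SD (n = 3). Cenpf with the Nanog morpholino at 44 h (6131 to 7136) stands above the other 44 h groups, and Cdkn3 is lowest in uninjected embryos at 44 h.

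Cenpf was thus higher at 44 h with the Oct4 and with the Nanog morpholino (1.20 and 1.16). These comparisons share no arrays and lie on different intensity scales. The difference between these effects was 0.04 (SE 0.26, adjusted p = 0.971). Cdk1 and Cenpa differed between them: Cdk1 gave -1.22 with the Oct4 and 0.09 with the Nanog morpholino (log2 difference -1.30, SE 0.34, adjusted p = 0.0343), and Cenpa -1.13 and 0.37 (log2 difference -1.498, SE 0.33, adjusted p = 0.0104). These are 2 of the 44 genes (4.55%, against 2.13% of all genes and 1.6% lower), and the alternatives of these tests of differences were chosen after seeing the data. The Cdk1 difference was lost in a fit of the compared arrays alone (0.0797) and without any of 9 of the 12 arrays left out in turn (0.0533 to 0.0877; all but the third control array of the Oct4 and Sall4 experiment, the third Oct4 and the second Nanog morpholino array), and that of Cenpa in a fit of the compared arrays alone (0.242) and with the mean of its probe sets (0.214). Anln (2.08) and Cdc25b (1.31) were called as well with quantile normalization, Cdc25b also without the third control array of the Oct4 and Sall4 experiment (1.47), Plk4 without the first Oct4 array (-1.05) and Anln without the third Nanog array (2.61). No gene of the 44 differed between the Sall4 and Nanog effects at 44 h (0 by limma, against 0.743% of all genes; 8 at an unadjusted p under 0.05), except that Mad2l1 was called without the third Sall4 array (-1.20) and Pttg1 with a pseudocount of 64 (-0.62).

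At 20 h few of these genes, and few of all genes tested, were called with any of the morpholinos. With the Oct4 morpholino, 2 of the 44 fell against uninjected embryos (4.55%, against 2.02% of all genes tested and 1.84% lower). Kif11, the kinesin that pushes spindle poles apart, read 1336, 647 and 1107 in uninjected embryos and 468, 432 and 279 with the morpholino (log2 difference -1.33, SE 0.28, adjusted p = 0.00652). Cenpe read 1805, 1437 and 2062 and 1126, 1137 and 1180.4 (log2 difference -0.60, SE 0.15, adjusted p = 0.0333). Neither gene's groups overlapped. The Kif11 call was lost in a fit of the compared arrays alone (0.185), with the mean of its probe sets (0.122) and without uninjected replicate 1 (0.0935) or uninjected replicate 3 (0.0501) or Oct4 morpholino replicate 3 (0.0705). That of Cenpe was lost with quantile normalization (0.05), in a fit of the compared arrays alone (0.262) and without any of 5 of the 6 arrays left out in turn (0.0588 to 0.242; all but uninjected replicate 2). Prc1 was gained without the first morpholino array (-0.82). The count was 0 without the first uninjected, the third uninjected or the third morpholino array, and 1 without the second morpholino array.

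With the Sall4 morpholino at 20 h, 0 genes were called by limma (0.233% of all genes), 3 of the 44 and 1382 of all genes having an unadjusted p under 0.05. Without the third uninjected array, which stood apart, Smc2 was called: it read 186, 77.9 and 999.7 in uninjected embryos and 742, 492 and 627 with the morpholino, a log2 difference of 1.23 with all arrays and 2.19 without that array. With the Nanog morpholino at 20 h, 0 genes were called by limma (0.62% of all genes), 5 of the 44 and 1221 of all genes having an unadjusted p under 0.05, and Kif11 was called with the mean of its probe sets (-1.30). In the Oct4 and Sall4 experiments at 20 h the effects of the oligomer and of injection cannot be told apart, since the reference was uninjected.

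The control injection itself was measured against uninjected embryos 3 times. In the 20 h embryos of the Nanog experiment limma called 0 of the 44 genes (0.0905% of all genes), with 1 of the 44 and 901 of all genes reaching an unadjusted p under 0.05. The 44 h embryos shared by Oct4 and Sall4 gave 0 calls by limma (0.0969%), with 3 of the 44 and 855 of all genes reaching that unadjusted p. The 44 h embryos of the Nanog experiment gave 1 call, higher (2.27%, against 0.349% of all genes and 0.168% higher). It was Cdkn3, which read 46.8, 26.9 and 315 in uninjected and 841, 1372 and 859.7 in control-injected embryos (log2 difference 3.40, SE 0.58, adjusted p = 0.00461). With the Nanog morpholino it read 641, 347 and 1156, close to the control-injected embryos (-0.63, adjusted p = 0.686) and called against the uninjected ones (2.76, adjusted p = 0.00284). The call against uninjected embryos was lost in a fit of the compared arrays alone (0.33) and without uninjected 44 h replicate 2 (0.0621). Control-injected embryos at 20 h read 2292, 618 and 569, so 1 array lay in the range of the uninjected embryos and 2 lay below it.

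**Figure D5:**
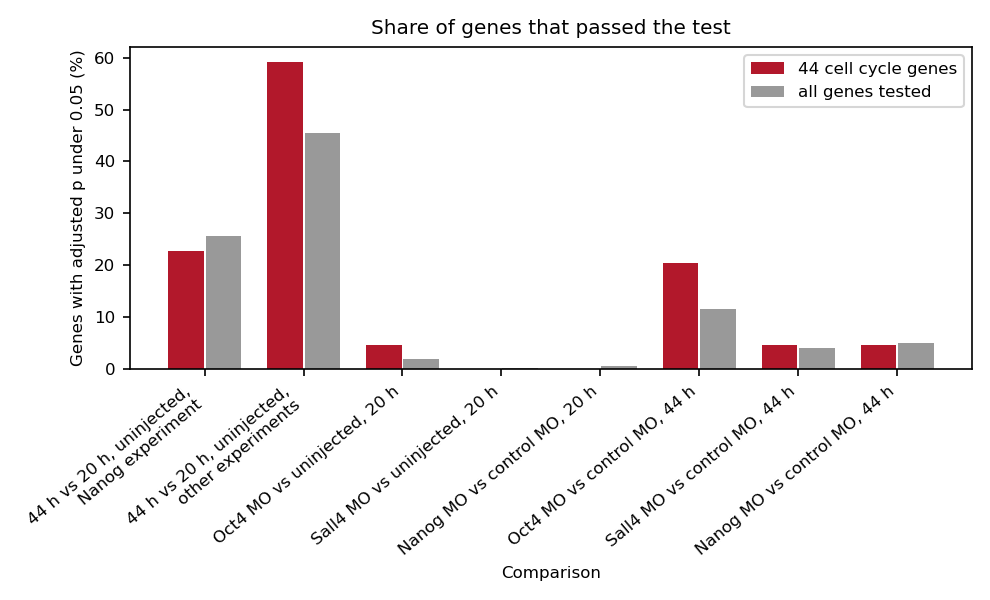
Bars give the percentage of genes that passed the test (y axis, from 0) for the 44 cell cycle genes and for all genes tested, in 8 comparisons. The cell cycle bar is the higher one in the other experiments over time (59.1% and 45.5%). It is also higher with the Oct4 morpholino at 44 h (20.5% and 11.6%) and 20 h (4.55% and 2.02%), and with Sall4 at 44 h (4.55% and 3.97%). It is lower with Nanog at 44 h (4.55% and 5.01%) and, at 0%, with Sall4 and Nanog at 20 h (0.233% and 0.62% of all genes). Over time in the Nanog experiment it is lower too (22.7% and 25.6%), where averaged probe sets turned the order (31.8% and 28.4%).

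A further 140 genes of the cycle, grouped in 7 lists, were set beside the 44, and 136 were tested. With the Oct4 morpholino at 44 h, 7 rose and 8 fell, 11% of the list against 11.6% of all genes. The anaphase-promoting complex and its inhibitors gave 5 of the 8 falls, out of 19 genes and with no rise (26.3% of that list, against 11.6% of all genes and 6.18% lower). No test compared the list with other genes, and the falls numbered 2 to 4 without single arrays, 2 in a fit of the compared arrays alone and 3 with probe sets averaged. Cdc23 (-2.49), Anapc11 (-1.71) and Cdc16 (-1.22) were among the 5, all subunits of the ubiquitin ligase that Bub3 and Bub1b restrain. The others, named after their values were seen, were Anapc2 (-1.02) and Ube2c (-0.95), the conjugating enzyme of that ligase. Anapc11 read 1154, 1534 and 1437 in control-injected embryos and 725, 325 and 280.2 with the Oct4 morpholino. Ect2, which activates RhoA for cytokinesis, read 821, 860.0 and 841 and 312, 299 and 278 (log2 difference -1.46, SE 0.23, adjusted p = 3.87e-05). Btrc, an F-box protein that marks Wee1 for destruction, and Mad1l1 (Mad1) fell (-2.59 and -1.24). Cdkn1c (p57), a Cdk inhibitor, read 52.6, 203 and 166 and 1188, 1627 and 555 (log2 difference 2.90, SE 0.73, adjusted p = 0.00746), and Fbxw7, the F-box protein that marks cyclin E, rose (1.5). Anapc11, Ube2c, Ect2 and Btrc kept the call without each array in turn, and calls were lost for Cdc23 without control array 2 or Oct4 array 1 (0.0611 to 0.0662), Cdkn1c without control array 1 (0.0604), Fbxw7 without control arrays 2, 3 or Oct4 array 2 (0.06 to 0.223), Mad1l1 without control arrays 2, 3 or Oct4 arrays 2, 3 (0.0538 to 0.122), Anapc2 without control arrays 2, 3 or Oct4 arrays 1, 2, 3 (0.0604 to 0.191) and Cdc16 without control arrays 1, 2, 3 or Oct4 arrays 1, 2, 3 (0.0605 to 0.137). With probe sets averaged Anapc11 (0.233), Cdc16 (0.264) and Mad1l1 (0.276) were not called, against uninjected embryos Anapc2 (0.287), Mad1l1 (0.173) and Fbxw7 (0.106) were not, and in a fit of the compared arrays alone Anapc11 (0.0606), Anapc2 (0.0955), Ube2c (0.0561), Btrc (0.0906) and Fbxw7 (0.192) were not. Anapc2 was also lost with a pseudocount of 1, no filter, quantile normalization or median centring (0.0548 to 0.0582 by limma), and Mad1l1 and Fbxw7 with a pseudocount of 64 (0.0877 and 0.0747).

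With the Sall4 morpholino at 44 h, 1 of the 136 rose and 5 fell, 4.41% against 3.97% of all genes. Anapc11 read 642, 176 and 909 (-1.5, adjusted p = 0.0251) and Ect2 368, 290.1 and 516 (-1.11, 0.00302), against the same controls as above. Racgap1, the partner of Kif23 in centralspindlin, fell (-1.07), as did Fbxo5 (Emi1, an inhibitor of the anaphase-promoting complex; -1.01) and Hmmr (-0.78), and the cohesin subunit Stag1 rose (1.00). Ect2 kept its call without each array, and calls were lost for Anapc11 without control arrays 2, 3 or Sall4 array 2 (0.0844 to 0.323), Fbxo5 without control array 3 or Sall4 arrays 1, 2 (0.0892 to 0.161), Stag1 without control arrays 1, 2 or Sall4 array 2 (0.0709 to 0.111), Hmmr without control arrays 1, 2, 3 or Sall4 array 2 (0.0945 to 0.395) and Racgap1 without control arrays 1, 2, 3 or Sall4 arrays 1, 2 (0.0688 to 0.275). With probe sets averaged Hmmr gave 0.02 and Anapc11 (0.625), Racgap1 (0.769) and Stag1 (0.232) were not called either; Stag1 was not called against uninjected embryos (0.632). Racgap1 was lost with median centring (0.0577), no filter (0.0521) or a pseudocount of 64 (0.0505), and none of the 6 was called in a fit of the compared arrays alone (0.147 to 0.355). Between the Oct4 and Sall4 morpholinos, 10 were higher and 4 lower with Oct4 (10.3%, against 7.07% of all genes), among them Cdkn1c (2.48), Hmmr (1.33), Racgap1 (1.28) and Spag5 (1.36) higher and Btrc (-2.36) lower. Hmmr kept its call without each array, and calls were lost for Btrc without Oct4 array 3 (0.0571), Racgap1 without Oct4 array 1 or Sall4 array 2 (0.0638 to 0.077), Spag5 without Oct4 arrays 1, 2 or Sall4 array 2 (0.0526 to 0.103) and Cdkn1c without Oct4 arrays 1, 2 or Sall4 arrays 1, 2, 3 (0.0534 to 0.125). With probe sets averaged Racgap1 gave -0.22 and Hmmr was not called (0.563), and none of these 5 was called in a fit of the compared arrays alone (0.095 to 0.233).

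With the Nanog morpholino at 44 h, 6 of the 136 rose and 4 fell, 7.35% against 5.01% of all genes. E2f1, an activator of replication genes, read 1431, 1585 and 2063 in control-injected embryos and 4117, 4697 and 4089 with the morpholino (log2 difference 1.35, SE 0.22, adjusted p = 0.000227), and its effect differed from that at 20 h (1.33, adjusted p = 0.0276). Cdkn1b (p27), a Cdk inhibitor, read 193, 137 and 187 and 1295, 674 and 322 (log2 difference 1.85, SE 0.43, adjusted p = 0.00898). Plk2 (2.04), Cep55 (1.60), Pds5b (1.44) and Spc25, a subunit of the Ndc80 complex (1.14), rose, while Anapc1 (-1.52) and Aurkc (-1.17) fell. The other falls, named after their values were seen, were Cdc27 (-0.84) and Ect2 (-0.83). E2f1 and Anapc1 kept the call at 44 h without each array, and calls were lost for Spc25 without control array 2 (0.0855), Cdkn1b without control array 2 or Nanog array 1 (0.0525 to 0.104), Cep55 without control array 2 or Nanog array 1 (0.0531 to 0.151), Aurkc without control arrays 2, 3 or Nanog arrays 1, 2 (0.0603 to 0.237), Plk2 without control arrays 2, 3 or Nanog arrays 1, 2, 3 (0.0547 to 0.247), Pds5b without control arrays 1, 3 or Nanog arrays 1, 2, 3 (0.0555 to 0.275), Cdc27 without control arrays 1, 2, 3 or Nanog arrays 1, 2 (0.063 to 0.232) and Ect2 without control arrays 1, 2, 3 or Nanog arrays 1, 2 (0.0593 to 0.254). The E2f1 difference between times was lost without 7 of 12 arrays (0.0542 to 0.0678), and with probe sets averaged Pds5b gave -0.16 and Anapc1 (0.686) and Cdc27 (0.0884) were not called. None of the 10 was called in a fit of the compared arrays alone (0.0828 to 0.425), the E2f1 difference between times was lost there (0.103) and with a pseudocount of 1 (0.0661), and Pds5b was lost with a pseudocount of 1, no filter, quantile normalization or median centring (0.0535 to 0.112). At 20 h the Oct4 morpholino gave 4 falls (2.94%, against 2.02% of all genes): Stag2 (-1.51) and Smc3 (-0.61) of cohesin, Knl1 of the kinetochore (-1.22) and Anapc7 (-1.12). Stag2 kept its call without each array, and calls were lost for Knl1 without uninjected array 1 or Oct4 array 3 (0.0606 to 0.0876), Anapc7 without uninjected array 1 or Oct4 arrays 2, 3 (0.0504 to 0.188) and Smc3 without uninjected arrays 1, 3 or Oct4 arrays 1, 2 (0.0564 to 0.477). None of the 4 was called in a fit of the compared arrays alone (0.125 to 0.372), Smc3 (0.844) and Anapc7 (0.253) were not with probe sets averaged, and Smc3 was lost with a pseudocount of 1 (0.0536) or quantile normalization (0.113). The Sall4 and Nanog morpholinos gave 0 of 136 by limma at 20 h.

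Over time in uninjected embryos, 7 of the 136 rose and 29 fell in the Nanog experiment, and 29 rose and 50 fell in the others, 26.5% and 58.1% against 25.6% and 45.5% of all genes. The Rb and E2F list gave 9 and 10 of these falls out of 19 genes, against 1 and 2 rises (E2f6 in both, and E2f3), 52.6% and 63.2% called. Rb1 (-3.24 and -4.92), the brake on E2F, and E2f5 (-2.41 and -4.73) fell in both comparisons. Foxm1, an activator of mitotic genes, fell in the Nanog experiment (-3.54, adjusted p = 2.86e-10), where it was higher in control-injected than in uninjected embryos at 44 h (1.32, adjusted p = 0.0354; lost without the first or second uninjected or the third control array, 0.0852 to 0.189, with a pseudocount of 1, 0.116, with probe sets averaged, 0.806, or with the compared arrays alone, 0.327). Kif14 (-3.29) and E2f8 (-2.88) fell and Cit, citron kinase, rose (2.58) there. In the other experiments Btrc (3.23), Anapc10 (2.79), Anapc13 (2.69) and E2f3 (2.73) rose and Spc25 (-2.73) and E2f2 (-2.72) fell. The anaphase-promoting complex list gave 8 rises and 2 falls (Cdc26 and Fbxo5) of 19 there, where 20.4% of all genes rose and 25% fell. In the Nanog experiment it gave 2 rises (Cdc16 and Anapc13), where 9.28% of all genes rose and 16.3% fell. E2f6, Cdc26, Fbxo5 and Cdc16 were named after their values were seen. Of the genes named over time, calls were lost for E2f6 without the third 20 h array of the Nanog experiment (0.0546) and for Cdc26 without the third 44 h array of the others (0.0734), with the compared arrays alone (0.0704) or with probe sets averaged (0.811), and the rest kept theirs in these alternatives. The alternatives for genes outside the 44 were chosen after seeing the data.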

How the data were processed

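RNA of embryos was amplified and hybridised to 42 single-colour Affymetrix arrays, 3 for each of 14 groups, per the labels' protocols. The deposited values are linear intensities of 45101 probe sets; the authors' background correction, summarisation and scaling are not given in the sources used here. Precision is limited by the number of arrays, and p-values measure the spread between arrays. The platform annotation gives 1 gene symbol to 34945 probe sets, several to 932 and none to 9160, beside 64 controls. Only probe sets with 1 symbol were used, and the one with the highest mean stood for each of 18193 genes.

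From the deposited intensities, log2(intensity + 16) was computed, a scale on which the fold changes of dim genes come out too small. Testing required a group mean above the median of the table (71.15), a limit that pools both intensity scales and left 15478 genes. One limma fit of all arrays (limma 3.58.1, R 4.3.3; 28 residual degrees of freedom) gave 12 comparisons and 4 tests of differences, with Benjamini-Hochberg adjustment over all genes tested and a threshold of 0.05. Exact permutation of 3 against 3 arrays cannot go below p = 0.1 and was not used. Where groups are said not to overlap for a called gene, this describes the arrays that the test used. The share of all genes without overlap was not counted. The limma step was tested on simulated data.

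Samples were grouped by the labels. The 45 genes, the 7 lists of other cell cycle genes and the marker lists were chosen with earlier results of these data known. Every one of the 45 with an adjusted p under 0.05 was named; of the other cell cycle genes, at most 8 per comparison by size of change. Same-numbered arrays were not paired, since the labels give no shared source and 5 of 42 correlations of their deviations exceeded 0.1. All 5 lie in the Nanog experiment. Of these, 3 (0.111, 0.12 and 0.114) are all the pairs of uninjected and control-injected embryos at 20 h. The replicate block left the count of calls there at 0, which could not fall. At 44 h the same pairs of groups gave 0.063 to 0.134. Calls that the block ended are given below. Alternatives were the pseudocount (1 and 64), the filter, quantile normalization and median centring, the arrays in the fit, a replicate block, the mean of a gene's probe sets, uninjected controls, and leaving out each array. Promoters are RefSeq's, GRCm38.p6; figures used Python 3.11.15 and matplotlib 3.10.9.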

Additional observations from a re-analysis of the deposited data

Results flagged for a closer look

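The change from 20 h to 44 h in uninjected embryos differed between the Nanog experiment and the others for 8 of the 44 genes (18.2%, against 6.74% of all genes tested; limma, Nanog experiment minus others). These experiments differ in intensity scale, so scale and experiment cannot be told apart here. Cks1b (1.114, SE 0.184, adjusted p = 0.000209), Plk4 (1.142, SE 0.255, 0.0043), Incenp (0.823, SE 0.208, 0.0121), Pttg1 (0.761, SE 0.175, 0.00554) and Cenpf (0.861, SE 0.247, 0.0289) fell by less in the Nanog experiment or were not called there. Cdkn3 (-2.695, SE 0.772, 0.0284) fell by more. Plk1 (-1.92, SE 0.388, 0.00176) and Cenpe (-0.665, SE 0.205, 0.0448) rose in the other experiments and were not called in the Nanog experiment. Cks1b, Plk1, Plk4 and Pttg1 kept the call without each array in turn. The call was lost for Cenpe without 12 of 15 arrays (0.0504 to 0.114), for Cenpf without 7 (0.0535 to 0.121), for Cdkn3 without 6 (0.0502 to 0.117) and for Incenp without the first 44 h array of the other experiments (0.0506). With probe sets averaged the Incenp difference was 0.022 (0.977), that of Cenpf 0.381 (0.49) and that of Pttg1 was not called (0.111). In a fit of the compared arrays alone Pttg1 (0.0704), Cdkn3 (0.0836), Incenp (0.0844), Cenpe (0.138) and Cenpf (0.151) were not called, nor was Cenpf with median centring (0.0615) or Cenpe with a pseudocount of 1 (0.0557). Without the third 20 h array of the Sall4 experiment Cdk4 (-1.29), Ndc80 (-1.17) and Smc2 (-1.81) were called too, as was Kif20a without the second (-0.99), and Cdc25b without the first 44 h array of the other experiments (1.38).

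The effect of the Nanog morpholino on Cenpf differed between 44 h and 20 h (1.276, SE 0.264, adjusted p = 0.0139). The effects of the Oct4 and Nanog morpholinos at 44 h differed for Cdk1 (-1.303, SE 0.34, 0.0343) and Cenpa (-1.498, SE 0.33, 0.0104), both lower with Oct4. These comparisons also lie on different intensity scales.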

How the results depend on the processing

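Over the 72 calls of single genes, 1227 alternative values were computed: 1003 kept direction and call, 223 kept the direction and lost the call, and 1 reversed (Cenpa over time in the Nanog experiment, 0.205 with the mean of its probe sets). Of the 72 calls, 25 held in every alternative and 39 without each array in turn. The counts that moved are given by setting, and where nothing else is said the cause was not tested. With a pseudocount of 64, the Nanog morpholino at 44 h gave 4 genes and the Sall4 minus Nanog difference 1. With quantile normalization, the Oct4 morpholino at 20 h gave 1, Sall4 at 44 h 0 and the Oct4 minus Nanog difference 4. With the compared arrays alone, which leaves fewer residual degrees of freedom, Oct4 gave 0 at 20 h and 3 at 44 h, Sall4 at 44 h, Nanog at 44 h, Oct4 against Sall4, the control injection at 44 h in the Nanog experiment, and the Nanog 44 h minus 20 h and Oct4 minus Nanog differences each gave 0, and the difference in time between experiments 3. With the mean of all probe sets, Oct4 and Nanog at 20 h each gave 1, Sall4 at 44 h 0, Nanog at 44 h 5, the difference in time 5, Nanog 44 h minus 20 h 0 and Oct4 minus Nanog 1. Against uninjected embryos, Sall4 at 44 h gave 6. With the replicate number as a block, Oct4 at 20 h gave 1 (Cenpe lost, 0.0587) and Sall4 at 44 h 0 (Aurka 0.0503, Smc4 0.0511); no other count moved by over 1.5 times, and of the other calls of the 44 genes those of Smc4 in Oct4 against Sall4 (0.0544) and Cenpa over time in the Nanog experiment (0.0609) were lost. Of the other cell cycle genes named it ended the calls of Smc3 (0.0963), Anapc2 (0.0706), Racgap1 and Hmmr with Sall4 (0.0619 and 0.0595), Pds5b (0.0918) and the E2f1 difference between times (0.0553). Leaving out 1 array gave 0 to 2 genes for Oct4 at 20 h, 0 to 1 for Sall4 at 20 h, 0 to 4 for Sall4 at 44 h, 3 to 9 for Oct4 against Sall4, 0 to 1 for the control injection at 44 h in the Nanog experiment, 5 to 9 for time in the Nanog experiment, 5 to 11 for the difference in time, 1 to 3 for Oct4 minus Nanog and 0 to 1 for Sall4 minus Nanog. Among the other cell cycle genes named, 3 values reversed with probe sets averaged: Hmmr with Sall4 at 44 h (0.021), Pds5b with Nanog at 44 h (-0.157) and Racgap1 in Oct4 against Sall4 (-0.221). The alternatives for those genes and of the 4 tests of differences were chosen after seeing the data.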

Other observations

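For 32 of the genes the arrays carry several probe sets, and some of these read differently from the one used. The probe sets below were chosen after their values were seen and were given no test. For Pttg1 (securin), another probe set read 172, 88.8 and 164 in control-injected embryos at 44 h and 1665, 1799 and 2163 with the Oct4 morpholino, a log2 difference of 3.62, where the probe set used gave 0.29. In the Nanog experiment it averaged 2394 in the control and 5694 with the Nanog morpholino (1.26), where the probe set used gave 0.36. The remaining Pttg1 probe set, brighter than the one quoted, gave 0.42 with the Oct4 and 0.37 with the Nanog morpholino at 44 h. For Ccnd2, a D-type cyclin, another probe set read 19.1, 3.66 and 1 in control-injected embryos, all below their array's own median, and 333, 496 and 300.4 with the Oct4 morpholino, where the probe set used gave -0.49. No fold is given against such dim values. The arrays of morpholino and control did not overlap in the Oct4 comparison for the quoted probe sets of Pttg1 and Ccnd2. These were chosen after their values were seen, so this adds no support. The remaining probe sets of Ccnd2, all dimmer than the one used, gave log2 differences of 0.52 to 1.24 in that comparison. Only the probe set used was lower.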
